A study of Mus musculus with 28 samples.

Results

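The cytosolic ribosome is built from ribosomal RNA and a fixed set of proteins, those of the large subunit (Rpl genes and the stalk genes Rplp0, Rplp1 and Rplp2) and those of the small subunit (Rps genes and Rpsa). The members were protein-coding genes whose symbol starts with Rpl or Rps and a number, with the stalk genes and Rpsa added, and with the Rps6k kinases and names ending in -ps left out. This rule used names and no measured value, though the members were chosen with earlier results of these data known. It gave 86 of the 41605 genes in the count table. Of these, 46 were core proteins of the large subunit, 31 were core proteins of the small subunit, and 9 were paralogs or proteins with a similar name.

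The study followed peripheral nerves of wild-type C57BL/6J mice by bulk poly-A RNA sequencing from the embryo to the young adult, with 4 libraries at each of 7 stages (28 libraries). The stages, as labelled, were E13 and E17 in the embryo (E13.5 and E17.5 in the design text) and postnatal days P1, P5, P14, P24 and P60. Each E13 library pooled various nerves of 2 embryos, each E17 library pooled sciatic nerves of 2 embryos, and each postnatal library came from the sciatic nerves of 1 mouse. From E17 on the outer sheaths (epineurium and perineurium) were stripped off as far as possible, and the paper describes no stripping at E13. Every comparison with E13 thus mixed age with a change of nerve and of dissection. The mice were not perfused, and no group carried a transgene or a treatment. Each stage had 2 libraries from males and 2 from females, and the labels of single libraries used here do not give the sex.

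Ribosomal proteins are made in near-equal numbers, since each ribosome holds about a single copy of most of them and the acidic stalk proteins in more copies. Their mRNAs share a hallmark, a run of pyrimidines (C and U) at the very start, the terminal oligopyrimidine tract, through which mTORC1 and the RNA-binding protein Larp1 control their translation. In growing cells the Myc proteins raise transcription of ribosome components. A poly-A RNA count records the level of an mRNA and says nothing of how often it is translated. During the time covered here Schwann cells stop dividing, sort axons and build myelin, and the myelin genes come to hold a large part of the mRNA.

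The annotated starts were read first, since the tract is the feature that unites the family. RefSeq promoter sequence (GRCm38.p6, 300 bases each, 250 of them before the start) was at hand for 66 of the 86 members, 57 of them core. A run of at least 6 C or T that reached within 10 bases of an annotated start was found for 35 of the 57 core members (61.4%) and for 33.3% of the 17491 protein-coding genes in the same table. For a run of at least 8 the shares were 47.4% of the core members and 16.2% of all coding genes. Of the 9 paralogs and similarly named proteins, 4 had a run of at least 6 and 2 a run of at least 8. The windows below show 30 bases before the annotated start and 20 from the start on, 5′ to 3′, with the run in capitals, for Rps6, Rps24 and Rps2 as core small subunit genes that fell, for Rps21 and Rplp2 as members with higher estimates at P60, and for 2 paralogs beside the core gene of one of them.
Rps6 (chr4:86857348-86857397, strand -): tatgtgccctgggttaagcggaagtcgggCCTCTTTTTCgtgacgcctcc
Rps24 (chr14:24490648-24490697, strand +): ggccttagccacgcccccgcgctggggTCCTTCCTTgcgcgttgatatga
Rps2 (chr17:24720033-24720082, strand +): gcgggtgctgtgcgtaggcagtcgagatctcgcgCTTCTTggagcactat
Rps21 (chr2:180257349-180257398, strand +): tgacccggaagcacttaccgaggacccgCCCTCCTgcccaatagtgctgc
Rplp2 (chr7:141447621-141447670, strand +): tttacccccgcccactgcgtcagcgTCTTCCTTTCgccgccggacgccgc
Rps27 (chr3:90213629-90213678, strand -): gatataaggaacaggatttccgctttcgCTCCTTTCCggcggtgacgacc
Rps27l (chr9:66946056-66946105, strand +): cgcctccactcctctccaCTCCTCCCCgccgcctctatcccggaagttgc
Rpl22l1 (chr3:28805478-28805527, strand +): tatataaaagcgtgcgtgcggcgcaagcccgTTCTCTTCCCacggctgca
Rps24, Rps21 and Rps27l each have a second annotated start further downstream, whose window held no such run, and a gene was counted as having a run if any of its starts did. In Rps6 and Rps27 the run spanned the annotated start, whereas in Rps27l it ended before the start. Rps2 and Rps21, which changed in opposite directions below, both had a short run. An annotated start can lie some bases away from the start used in nerve, so a missing run says only that these letters were not in this window.

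Other short motifs were counted over the whole 300 bases on both strands. The ETS core CCGGAAG, which reads CTTCCGG on the other strand and can then share bases with a pyrimidine run, was in 24 of the 57 core promoters (42.1%) and in 12.9% of all coding promoters. The YY1 core AAGATGGC was in 5 of the 57 core promoters (8.77%) against 3.57% of all. The Sp1 core GGGCGG, whose letters can overlap those of the ETS core, was in 35 of the 57 (61.4%) against 49.2% of all. These are counts of letters, with no measurement of binding.

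Library totals ran from 13899895 to 37662780 counts. No library pair within a stage was alike to within sampling noise, and the labels do not tell litters apart. Counts were scaled by the trimmed mean of M values (TMM) and are given as CPM, that is relative to a common scaled library total. Of the 86 members, 82 had enough counts to be tested, among them all 77 core genes. Rpl10l, Rpl3l, Rpl39l and Rps27rt, with totals of 0, 10, 84 and 99 counts over the 28 libraries, did not pass the filter on low counts. The 82 had between 94 and 50525 counts in any library. The multi-mapping setting of the counting is not given in the sources used here, and ribosomal protein genes have many near-identical processed copies, so a count can include reads of a copy or miss shared reads. The 15 pseudogene copies whose symbols end in -ps, with or without a number, held at most 0.000706% of the counts of any library. Copies under other names were not summed, so the share of all copies was not measured. In 28 members an exon overlapped another gene on the same strand, often a small nucleolar RNA, and in 19 one on the opposite strand. Some libraries favoured GC-rich or GC-poor genes. The within-stage slope of log2 level on GC content was -1.02 per 10 points in E13 replicate 1, 0.80 in E13 replicate 4, -0.47 in P1 replicate 1 and between -0.18 and 0.22 in the other 25 libraries.

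Members together made up a smaller share of the mRNA in older nerves. The E13 libraries had a summed share of all counts of 4.50% ± 1.45 (SD, n = 4), and the E17 libraries 2.82% ± 0.128. After birth the share was 3.05% ± 0.217 in P1 nerves and 2.46% ± 0.185 in P5 nerves. It was 1.62% ± 0.0706 at P14 and 1.62% ± 0.126 at P24, and the adult P60 nerves had 1.84% ± 0.0736. In the single libraries the E13 shares were 2.86%, 3.97%, 4.91% and 6.27% in replicates 1 to 4, the lowest and highest being the libraries with the steepest GC slopes. The E17 shares were 2.71% to 3.00% and the P60 shares 1.75% to 1.92%, so these groups did not overlap, and the difference was -0.97 percentage points. This is a description with no test. In bulk nerve, fewer cells of a type and less mRNA per cell cannot be told apart.

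A share also depends on what the other genes take. The 10 most abundant genes of each library took 6.96% ± 0.200 of counts at E17, 23.3% ± 0.744 at P14 and 15.7% ± 0.931 at P60. With those genes left out of the total, the members' share at P60 was 0.84 percentage points below that at E17. On the TMM scale, the summed level of E17 nerves was 24470 ± 1306 CPM. From E17 on it was highest just after birth, with 28760 ± 2481 CPM in P1 and 26660 ± 1887 CPM in P5 nerves, and lower from P14 on (19750 ± 930 at P14, 18940 ± 1643 for P24 and 19930 ± 1122 for P60). All 4 P60 sums (18500 to 21100 CPM) were below all 4 E17 sums (23550 to 26320 CPM).

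**Figure D1:**
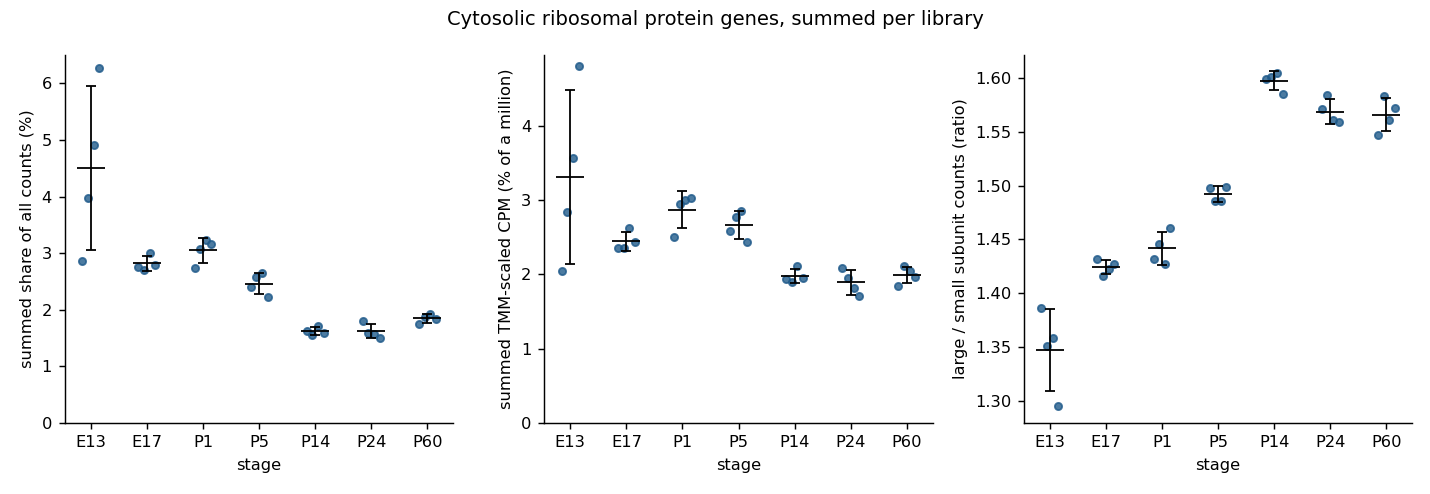
Summed counts of the 86 members per library at 7 stages, as a percentage of all counts (left), as summed TMM-scaled CPM in percent of the scaled total (middle), and as the ratio of large to small subunit counts (right, axis not from 0). Points are the 4 libraries of a stage and bars the mean ± SD. The E13 libraries spread from 2.86% to 6.27% of counts, and the ratio was above 1.54 in every library from P14 on.

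The ratio of large to small subunit counts was higher in older nerves. The core large subunit genes had 1.42 ± 0.00685 times the counts of the core small subunit genes at E17 (n = 4), 1.49 ± 0.00739 times at P5, 1.60 ± 0.00837 times at P14 and 1.57 ± 0.0152 times at P60. The 4 E17 libraries had ratios of 1.42 to 1.43 and the 4 P60 libraries 1.55 to 1.58. At E13 the ratio was 1.35 ± 0.0383, with a range of 1.30 to 1.39. These are ratios of counts, not of proteins per ribosome, and they carry no test, being sums over the members.

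The levels of single members spanned a wide range even per length. Over all 28 libraries the highest means were those of Rps3 (1116 RPKM), an rRNA-binding protein near the mRNA entry channel, Rps24 (1099 RPKM), an rRNA-processing protein mutated in some cases of Diamond-Blackfan anaemia, and Rpl13a (1032 RPKM), a large subunit protein also known for binding a translation-control element in inflammatory mRNAs. The lowest core members were Rpl27a (65.9 RPKM), Rps20 (75.9 RPKM) and Rpl35 (99.6 RPKM). RPKM here divides by the shortest annotated coding transcript, which is 3706 bases for Rps20, 1158 for Rpl27a and 946 for Rpl35, but 489 for Rps3. So the low place of Rps20 rests on its annotated length, and in CPM, which ignores length, Rps20 had a mean of 281 and Rps3 one of 546. The high places of Rps3, Rps24 and Rpl13a rest on the shortest of 3, 5 and 2 annotated coding transcripts. In CPM, Rplp0 (1002) and Rpl4 (915) were among the members above all of them.

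Along the 7 stages most members changed, and so did most genes. The timeline test (edgeR quasi-likelihood, adjusted p under 0.05) called 64 of the 82 tested members, against 88.8% of all 17700 genes tested. Of the 82, 66 had their highest stage mean at E13. From E17 on, 64 peaked at P1, 8 at P5, 5 at E17 and 5 at P60. The lowest mean from E17 on fell at P24 for 37 members, at P60 for 21, at P14 for 15 and at E17 for 9. The heatmap of stage means shows this shape, with a small rise at P1 and a step down between P5 and P14.

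**Figure D2:**
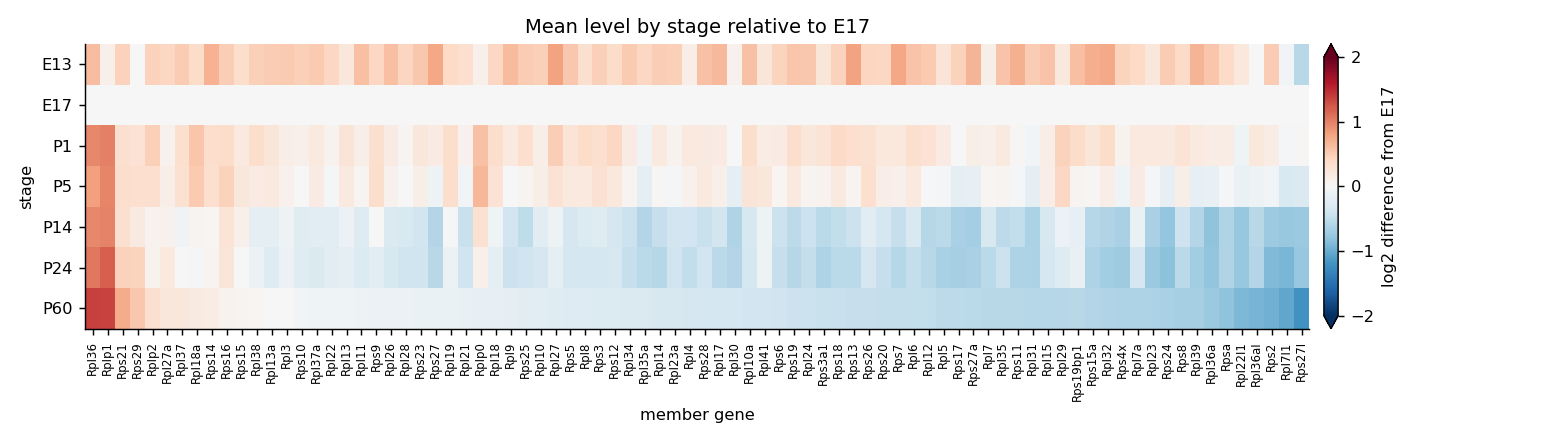
Mean level of each of the 82 tested members (columns, ordered by the P60 against E17 fold change) at 7 stages (rows), as the log2 difference from its E17 mean (CPM + 0.5). Blue is lower and red higher than E17, and most columns turn blue at P14 and stay so, while Rpl36 and Rplp1 at the left stay red from P1 to P60.

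From E13 to E17, 51 members fell and 1 rose, with a median log2 change of -0.48 over the 82 against -0.08 over all genes. Of all genes, 34.1% fell and 28.1% rose. The largest falls were in Rps13, a small subunit protein, and Rpl27, a large subunit protein. Rps13 had 199, 200, 291 and 389 CPM in the 4 E13 libraries and 146 to 160 CPM at E17, a log2 change of -0.81 ± 0.14 (SE, adjusted p = 1.5e-05). Rpl27 had 70.5, 92.5, 133 and 205 CPM at E13 and 63.2 to 82.3 at E17, a log2 change of -0.80 ± 0.20 (adjusted p = 0.000882), with overlap between the groups, and of -0.46 without E13 replicate 4 (adjusted p = 0.00894). The rise was Rps27l, a paralog of Rps27, with 38.4 to 75.6 CPM at E13 and 75.6 to 82.1 at E17 (log2 change 0.57 ± 0.13, adjusted p = 0.000575). The number called depended on the libraries in the fit. Fitted on the E13 and E17 libraries alone, 14 members fell and none rose, and without E13 replicate 4 the count was 30 lower and 1 higher.

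Other tissues moved with that comparison. Of the markers of neuron cell bodies, 8 of 8 were lower at E17 and their sum was 228 to 489 CPM at E13 and 7.55 to 14.98 CPM at E17. Erythroid markers were lower in 9 of 9 (4506 to 28560 CPM at E13, 365 to 1010 at E17), and skeletal muscle markers in 7 of 8, with 1 higher (32.6 to 682 against 9.93 to 34.1 CPM). Schwann cell markers were higher in 7 of 7, from 279 to 494 CPM up to 3765 to 4207 CPM. Schwann cell mRNA was thus detected at both stages and was far higher at E17. At E13 its markers had a sum close to that of the neuron cell body markers. Proliferation markers were higher in 8 of 8 (463 to 629 against 2475 to 2548 CPM), the opposite direction to most members. Fibroblast markers were higher in 4 of 6 (1522 to 2594 against 16120 to 18070 CPM), endothelial markers higher in 4 of 5 and lower in 1 (151 to 203 against 257 to 309 CPM), and macrophage markers lower in 4 of 5 (183 to 312 against 89.5 to 102 CPM). Their part in the change of the members was not tested.

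Between E17 and P1 nearly all members had a small positive estimate, and few passed the test. Estimates were above 0 for 77 of 82 members, with a median of 0.20 against 0.00 for all genes. In the fit over all stages 2 rose and none fell by edgeR, while 11 had an unadjusted p under 0.05. Of all genes, 15.1% rose and 14.4% fell. The members that rose were Rps3a1, with 420 to 441 CPM at E17 and 497 to 584 at P1 (log2 change 0.28 ± 0.086, adjusted p = 0.0150), and Rps25, with 221 to 234 and 264 to 321 CPM (0.33 ± 0.11, adjusted p = 0.0231). Both are core small subunit proteins, and neither overlapped between the stages. The largest estimates were for Rplp1 and Rpl36, which did not pass (log2 changes of 1.01 ± 0.44 and 0.97 ± 0.50, adjusted p = 0.0876 and 0.150).

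The count differed between fits, and the cause was not tested. Counts from alternative fits, here and for the other steps, are given without the share of all genes called in them. They therefore do not set the members against genes in general. Without the E13 libraries 36 members rose and none fell, without E13 replicates 1 and 4 and P1 replicate 1 49 rose, and limma-voom with quality weights called 58 higher and 1 lower. Some fits called fewer: 0 members were called with library size only or without E17 replicate 2, and 1 was called with DESeq2 size factors, without E17 replicate 1 or without E17 replicate 4, so the calls of Rps3a1 and Rps25 did not hold in all of these fits. Across the 82 members the P1 against E17 estimate went with GC content at a Pearson r of 0.505 (Spearman 0.43), as a description over genes that share libraries, and its part was not tested beyond the removal of GC trends, after which 13 or 16 members rose and none fell. P1 replicate 1, the library with a slope against GC-rich genes, had the lowest level of Rplp1 (96.2 CPM against 393, 467 and 499) and of Rpl36 (14.1 against 74.2, 84.5 and 85.3). Without it both rose by edgeR (adjusted p = 0.0161 for Rplp1 and 0.0365 for Rpl36).

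Cell type markers moved in this step too. Schwann cell markers were higher at P1 in 6 of 7 (3765 to 4207 CPM at E17, 15600 to 27130 at P1), while proliferation markers were lower in 8 of 8 (2475 to 2548, then 1173 to 1599 CPM). Muscle markers were lower in 7 of 8 (9.93 to 34.1, then 1.75 to 4.12 CPM), erythroid markers in 6 of 9 (365 to 1010, then 58.5 to 175 CPM), endothelial markers in 4 of 5 (257 to 309, then 150 to 173 CPM) and neuron cell body markers in 2 of 8. No fibroblast or macrophage marker was called. The part of these cell types in the members' estimates was not tested.

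From P1 to P5, 2 members fell and none rose by edgeR, with 11 at an unadjusted p under 0.05. Of all genes, 7.33% fell and 10.3% rose. Rps24 went from 585, 597, 653 and 772 CPM at P1 to 495 to 537 at P5 (log2 change -0.34 ± 0.10, adjusted p = 0.0225). Without P1 replicate 1, which held the highest value, its adjusted p was 0.167. Rpl36al, an intronless relative of Rpl36a, went from 42.1 to 44.8 CPM down to 33.0 to 35.8 (log2 change -0.31 ± 0.11, adjusted p = 0.0452). Rpl39, a very short protein at the exit tunnel of the large subunit, had the largest estimate, -0.35 ± 0.14, and did not pass (adjusted p = 0.0931). Leaving out P1 replicate 1, P5 replicate 1 or P5 replicate 3 left 0 members called, and leaving out any of the other 5 libraries of these stages left 1, so each such fit lost at least 1 call. Without the E13 libraries 27 members fell. In this step proliferation markers were lower in 8 of 8 (1173 to 1599 CPM, then 638 to 781), Schwann cell markers higher in 4 of 7 (15600 to 27130, then 62610 to 68270 CPM), macrophage markers higher in 4 of 5 (82.1 to 101, then 160 to 183 CPM) and endothelial markers higher in 3 of 5 (150 to 173, then 205 to 243 CPM), and their part was not tested.

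Among the postnatal steps, that from P5 to P14 had the most calls. There 47 of 82 members fell and none rose, against 14.2% of all genes that fell and 15.4% that rose. The median was -0.46 (quartiles -0.54 and -0.35) against 0.00 for all genes, and 80 of 82 estimates were below 0. The exceptions were Rplp1 and Rpl36, with 0.01 ± 0.43 and 0.15 ± 0.49 and wide overlap. The small subunit had a median of -0.53 with 20 of 31 members lower, and the large subunit -0.39 with 23 of 46 lower. None of the falls reached 2-fold.

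Rpl32, a core large subunit protein, led with 392 to 412 CPM at P5 and 229 to 249 at P14 (log2 change -0.75 ± 0.17, adjusted p = 0.00123). Rps19, the small subunit protein most often mutated in Diamond-Blackfan anaemia, went from 205 to 283 CPM down to 143 to 158 (log2 change -0.72 ± 0.22, adjusted p = 0.0155), and without P5 replicate 3 its adjusted p was 0.0507. Rps2, at the mRNA entry channel, went from 332 to 359 CPM down to 202 to 237 (log2 change -0.67 ± 0.19, adjusted p = 0.00768). The P5 and P14 libraries did not overlap for any of these. DESeq2 called 46 members lower and limma-voom 72, with none higher by either, and a fit of the P5 and P14 libraries alone called 72 lower.

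Proliferation markers moved with that step, 8 of 8 being lower at P14 (summed 638 to 781 CPM at P5, 128 to 174 at P14). Of the Schwann cell markers 4 of 7 were higher and 1 lower (62610 to 68270 CPM, then 104600 to 127200). Of the macrophage markers 3 of 5 were lower (160 to 183 CPM, then 108 to 147), and of the endothelial markers 3 of 5 were higher (205 to 243 CPM, then 269 to 344). In the list of ribosome biogenesis 29 of 48 fell and 2 rose (median -0.47), beside the 14.2% of all genes that fell and 15.4% that rose. Of the translation factors 13 of 37 fell and none rose (median -0.31). Of the mitochondrial ribosomal proteins 10 of 78 fell, a share no higher than that of all genes, and 1 rose (median -0.14). Of the skeletal muscle markers 2 of 8 were higher (1.89 to 4.32 CPM, then 11.9 to 18.9), of the fibroblast markers 2 of 6 (12100 to 16370 CPM, then 11740 to 17140), of the erythroid markers 1 of 9 (65.2 to 344 CPM, then 110.5 to 206) and of the neuron cell body markers 1 of 8 (1.78 to 2.42 CPM, then 2.94 to 4.41). The part of these cell types in the members' change was not tested. The members' estimates in this step went with GC content at a Pearson r of 0.34 (Spearman 0.30), and 47 or 49 members fell after removal of GC trends.

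After P14 the fit over all stages called few members. Between P14 and P24 edgeR called 0 members in either direction, with 1 at an unadjusted p under 0.05, DESeq2 called 0 and limma-voom 3 lower. Of all genes, 2.72% rose and 2.72% fell. All 82 estimates lay between -0.22 (Rps9, adjusted p = 0.795) and 0.26 (Rps29, adjusted p = 0.798). Proliferation markers were lower at P24 in 8 of 8 (128 to 174 CPM at P14, 51.7 to 69.8 at P24). Muscle markers were lower in 2 of 8 and erythroid markers in 1 of 9. Fibroblast markers were higher in 1 of 6 and neuron cell body markers in 1 of 8. No Schwann cell, endothelial or macrophage marker was called, and the part of these cell types was not tested. Between P24 and P60, 2 members fell and none rose, against 9.23% and 6.84% of all genes. Both were paralogs. Rps27l went from 41.7 to 49.9 CPM down to 31.0 to 35.4 (log2 change -0.45 ± 0.13, adjusted p = 0.0217), and Rpl36al from 21.8 to 27.8 down to 17.8 to 21.6 (-0.35 ± 0.11, adjusted p = 0.0308). Rps19bp1, a nucleolar binding partner of Rps19 and no ribosomal protein, had an estimate of -0.43 ± 0.21 that did not pass (adjusted p = 0.185). Leaving out P24 replicate 2, P60 replicate 3 or P60 replicate 4 left 0 members called, so that neither call held, and 1 was called without P60 replicate 2, with DESeq2 size factors or without a filter on low counts. Other fits called more members, most of them higher: 20 higher and 5 lower by limma-voom, 13 and 5 without the E13 libraries, and 11 and 5 on the P24 and P60 libraries alone. The split also depended on scaling, since with library size alone 7 members rose and none fell, and all genes then shifted by a median of 0.10. Rps27l lost its call in that setting and after removal of GC trends (adjusted p between 0.0729 and 0.339), always with a negative estimate. Between P24 and P60 proliferation markers were lower in 7 of 8 (51.7 to 69.8 CPM, then 6.28 to 8.92) and erythroid markers lower in 4 of 9 and higher in 1 (78.3 to 203, then 23.3 to 49.3 CPM). Fibroblast markers were lower in 2 of 6 and higher in 1 (7126 to 14840, then 4931 to 7087 CPM). Schwann cell markers were lower in 2 of 7 and higher in 1 (96300 to 126900, then 68920 to 87750 CPM). Neuron cell body markers were higher in 2 of 8 (4.73 to 6.17, then 8.89 to 13.9 CPM) and endothelial markers in 1 of 5 (248 to 373, then 376 to 411 CPM). Macrophage markers were lower in 1 of 5 and muscle markers in 1 of 8 (13.3 to 18.3, then 7.40 to 10.8 CPM). The part of these cell types was not tested.

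Across the span from E17 to P60, both from stripped sciatic nerve, 38 members fell and 3 rose. Of all genes, 31.5% fell and 32.8% rose. The median over members was -0.34 against 0.00 for all genes. Changes of at least 2-fold were called in 4 members, against 39.7% of all genes. They were the falls of Rps27l and Rpl7l1 and the rises of Rpl36 and Rplp1. The falls took in 19 of 46 large subunit members, 14 of 31 small subunit members and all 5 tested paralogs and similarly named proteins, as the ranked plot of fold changes shows.

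**Figure D3:**
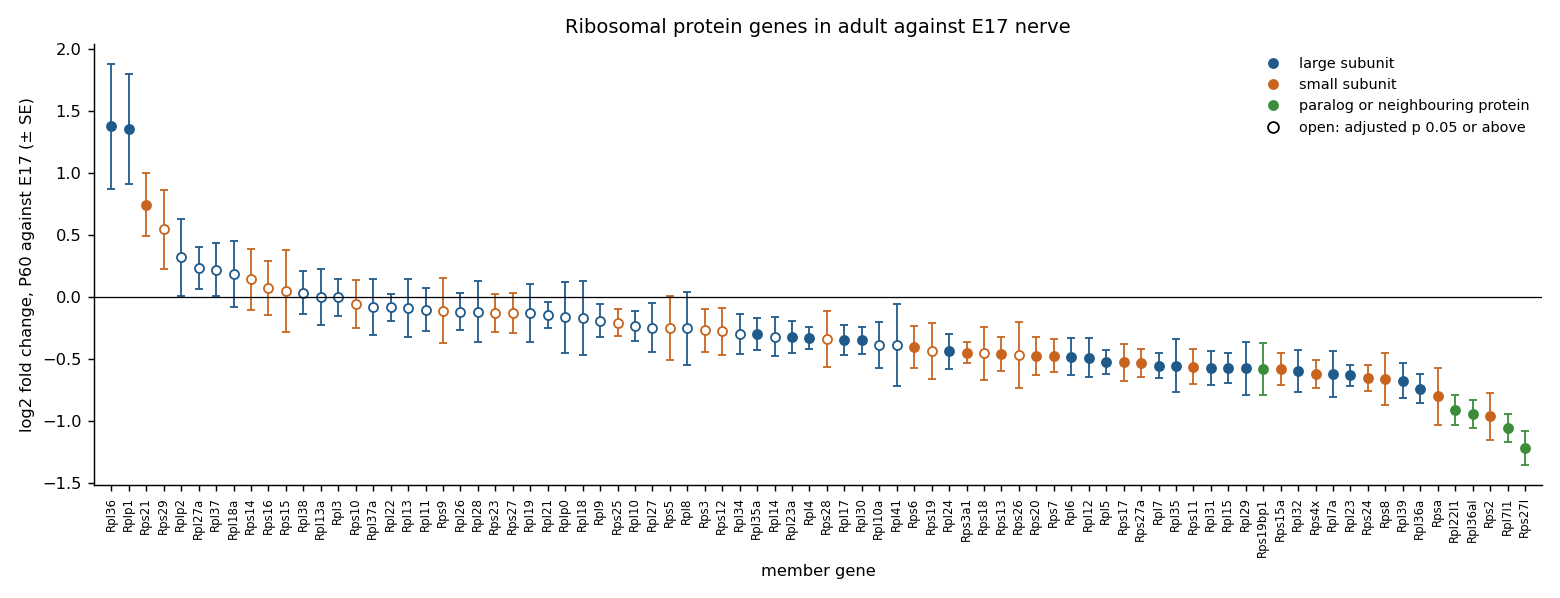
Fitted log2 fold change of each of the 82 tested members for P60 against E17, with its SE, ordered from the largest rise to the largest fall. Filled points passed an adjusted p of 0.05 over all 17700 genes. The 5 green points (paralogs and Rps19bp1) lie among the falls, 4 of them within the 5 lowest.

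Among the core small subunit genes Rps2 fell most. It had 342, 359, 368 and 358 CPM in E17 replicates 1 to 4 and 162, 199, 181 and 190 at P60, with no overlap, a log2 change of -0.96 ± 0.19 (adjusted p = 7.63e-05). Rpsa, a small subunit protein also known as the laminin receptor precursor, had 697, 756, 858 and 765 CPM at E17 and 386, 494, 461 and 426 at P60 (log2 change -0.80 ± 0.23, adjusted p = 0.00379). Rps24 had 594, 563, 575 and 578 CPM at E17 and 379, 369, 375 and 345 at P60 (log2 change -0.65 ± 0.10, adjusted p = 4.65e-06). In all of these every P60 library was below every E17 library. Rps27a, made as a fusion with ubiquitin, went from 370 ± 13.9 to 255 ± 11.1 CPM (log2 change -0.54 ± 0.11, adjusted p = 0.000169). Rps6, the target of S6 kinase, went from 144 to 165 CPM down to 109 to 124 (log2 change -0.40 ± 0.17, adjusted p = 0.0419), and without any 1 of 7 of the 8 libraries its adjusted p was above 0.05. Rps3, with the highest mean RPKM by shortest transcript, had an estimate of -0.27 ± 0.17 that did not pass (adjusted p = 0.176), though it fell in the fit without the E13 libraries (adjusted p = 0.000492). Rps20 fell from a mean of 289 to one of 208 CPM (log2 change -0.47 ± 0.15, adjusted p = 0.00913) and lost its call once GC trends were removed (adjusted p = 0.150 and 0.445).

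In the large subunit, Rpl5 and Rpl11, which form a particle with the smallest ribosomal RNA and can bind Mdm2 when assembly fails, differed in their calls. Rpl5 had 374 to 403 CPM at E17 and 260 to 283 at P60, a log2 change of -0.52 ± 0.098 (adjusted p = 4.13e-05), with no overlap. After removal of the GC trend against all libraries its adjusted p was 0.0707. Rpl11 had 323 to 355 CPM at E17 and 279 to 334 at P60, with overlap, and an estimate of -0.10 ± 0.17 (adjusted p = 0.621). The difference between these changes was not tested. Rpl35 fell from 97.1 ± 8.64 to 66.1 ± 4.32 CPM (-0.55 ± 0.21, adjusted p = 0.0254), with adjusted p-values up to 0.0794 when 1 library was left out. Rpl13a had a mean of 479 CPM at both stages (± 44.4 at E17 and ± 50.6 at P60, log2 change -0.00 ± 0.23), and Rpl27a had 67.8 ± 6.07 and 79.9 ± 14.6 CPM (0.24 ± 0.17, adjusted p = 0.229).

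The 3 stalk genes are of one structure, in which Rplp0 anchors pairs of the acidic proteins Rplp1 and Rplp2 that recruit elongation factors. Of the 3 mRNAs only that of Rplp1 was called, and differences between the genes were not tested. Rplp1 had 134, 182, 244 and 164 CPM in E17 replicates 1 to 4 and 267, 555, 481 and 545 CPM in the P60 libraries. The groups did not overlap, and the log2 change was 1.35 ± 0.44 (2.55-fold, adjusted p = 0.00952). Rplp2 had 87.5, 105, 135 and 96.0 CPM at E17 and 90.1, 156, 136 and 147 at P60, an overlapping pair with an estimate of 0.32 ± 0.31 (adjusted p = 0.374). Rplp0 had 718 to 998 CPM at E17 and 605 to 852 at P60 (-0.16 ± 0.29, adjusted p = 0.636). Its highest means were at P1 (1255 ± 405 CPM) and P5 (1335 ± 232 CPM).

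Rpl36 and Rps21 were the other members that rose. Rpl36, a short large subunit protein, had 23.5, 30.1, 48.8 and 29.0 CPM in the E17 libraries and 45.6, 103, 90.9 and 102 at P60, a log2 change of 1.38 ± 0.50 (adjusted p = 0.0187). P60 replicate 1 lay below E17 replicate 3, so the groups overlapped, and the timeline test did not call the gene (adjusted p = 0.255). Rps21, a small subunit protein, had 87.0, 102, 113 and 104 CPM at E17 and 128, 187, 187 and 179 at P60 (log2 change 0.75 ± 0.25, adjusted p = 0.0127), with no overlap. It too was not called along the timeline (adjusted p = 0.212). Rps29, also of the small subunit, had 152 to 226 CPM at E17 and 201 to 300 at P60, an estimate of 0.55 ± 0.32 that did not pass (adjusted p = 0.135).

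P60 replicate 1 had the lowest P60 level of all 5 of these members, Rpl36, Rplp1, Rps21, Rps29 and Rplp2. For Rpl36, Rplp1 and Rps21 the lowest library was replicate 1 in 5 of the 7 stages and replicate 4 in the other 2. All are short, with coding transcripts of 383 to 499 bases. Other members were as short, among them Rps27l (499 bases), which fell most, Rps27 (329) and Rps28 (271). Rpl36 had the highest GC content of all members (60.8%), with 57.3% in Rplp1, 53.7% in Rps21, 52.4% in Rplp2 and 51.9% in Rps29. Members that fell could be as rich in GC, such as Rps2 (56.7%) and Rpl35 (58.2%). Across the 82 members the P60 against E17 change went with GC content at a Pearson r of 0.44 (Spearman 0.40) and with log2 transcript length at -0.27, as descriptions over genes that share libraries. In the single steps the Pearson r with GC content ran from -0.15 (E17 against E13) to 0.505 (P1 against E17). The calls of Rplp1, Rpl36 and Rps21 held after removal of GC trends, with log2 changes of 1.11, 0.98 and 0.70 against the mean of all 28 libraries. The part of GC content or length in their change was not tested otherwise. Rpl36 lost its call with library size alone (log2 1.06, adjusted p = 0.0585), and Rps21 did as well (0.43, adjusted p = 0.120).

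**Figure D4:**
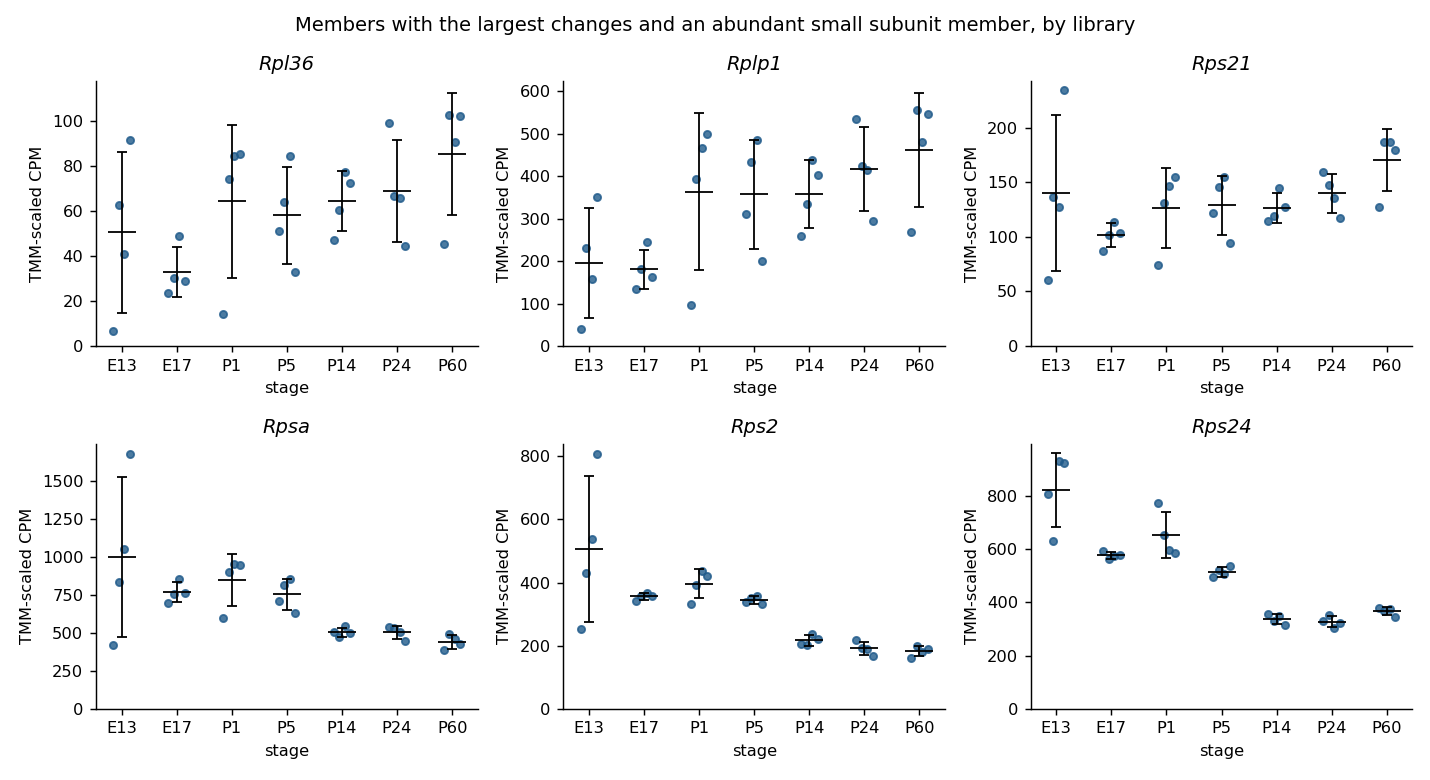
TMM-scaled CPM of 6 members in each library at 7 stages, points being the 4 libraries in replicate order and bars the mean ± SD. Rpl36, Rplp1 and Rps21 have low values in E13 replicate 1, P1 replicate 1 and P60 replicate 1, while Rpsa, Rps2 and Rps24 step down between P5 and P14.

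The paralogs were among the members with the lowest fold changes. Rps27l, which differs from Rps27 by a few residues, had 75.7, 75.6, 82.1 and 76.3 CPM at E17 and 35.4, 34.3, 32.7 and 31.0 at P60 (log2 change -1.22 ± 0.14, adjusted p = 1.02e-08). Rpl7l1, a relative of Rpl7 with a role in large subunit assembly, had 88.2, 90.2, 93.1 and 90.5 CPM at E17 and 49.9, 41.7, 40.6 and 42.1 at P60 (-1.05 ± 0.11, adjusted p = 4.45e-09). Rpl22l1, which can replace Rpl22, had 84.2, 85.5, 75.6 and 75.7 CPM at E17 and 46.0, 45.1, 42.4 and 37.4 at P60 (-0.91 ± 0.12, adjusted p = 2.32e-07). Rpl36al had 34.86, 34.96, 38.18 and 40.15 CPM at E17 and 21.6, 18.1, 19.7 and 17.8 at P60 (-0.94 ± 0.11, adjusted p = 2.54e-08). In all of them the stages were far apart. Rps19bp1 was low throughout, with 12.5 ± 1.15 CPM at E17 and 8.36 ± 1.40 at P60 (-0.58 ± 0.21, adjusted p = 0.0181), and lost its call without E17 replicate 3, P60 replicate 1 or P60 replicate 3 (adjusted p up to 0.0610).

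Set against its core gene, the paralog was lower at P60 in 3 of 5 pairs. The log2 ratio of each pair (CPM + 0.5) was compared between the 4 E17 and 4 P60 libraries by a two-sided exact permutation test, whose smallest possible p is 0.0286, with Benjamini-Hochberg adjustment over the 5 pairs in which both genes passed the filter. Rps27l stood at 29.0% ± 1.57 (SD, n = 4) of Rps27 at E17 and at 13.8% ± 0.918 at P60, a log2 difference of -1.08 (exact p = 0.0286, adjusted p = 0.0476). Rpl22l1 stood at 36.5% ± 2.61 of Rpl22 and then 20.6% ± 1.44 (-0.82, exact p = 0.0286, adjusted p = 0.0476). Rpl7l1 stood at 11.2% ± 0.424 of Rpl7 and then 7.99% ± 0.779 (-0.50, exact p = 0.0286, adjusted p = 0.0476). In each of these all 4 P60 ratios were below all 4 E17 ratios. Rpl36al stood at 21.5% ± 1.53 of Rpl36a and then 18.8% ± 1.29, a log2 difference of -0.19 that did not pass (exact p = 0.0571, adjusted p = 0.0571). Rps4l, a processed copy of Rps4x that the annotation calls a transcribed pseudogene and that is thus no member, stood at 1.14% ± 0.210 of Rps4x and then 1.89% ± 0.526, a log2 difference of 0.71 that did not pass either (exact p = 0.0571, adjusted p = 0.0571). The pairs were chosen with earlier results of these data known.

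The stage means of the ratios, given without a test, took different courses. Rps27l had stage means of 25.5% to 26.5% of Rps27 from P1 to P24, with single P24 libraries from 19.3% to 28.6% (SD 4.21), and was at 13.8% by P60, where Rps27 itself had a mean of 245 CPM after 183 at P24 (log2 change 0.42 ± 0.16, adjusted p = 0.0740). Rpl22l1 had ratios of 34.1% ± 2.72 at P5 and 25.2% ± 0.914 at P14. Rpl7l1 had its ratio at 8.87% ± 0.587 by P5 and 8.30% ± 0.503 by P14. At E13 the Rps27l ratio was 11.9% ± 1.97, near its P60 level, in nerves dissected otherwise. Rpl22 and Rps27 had estimates near 0 between E17 and P60 (-0.08 ± 0.11 and -0.13 ± 0.16), whereas Rpl7 fell (-0.55 ± 0.10, adjusted p = 3.08e-05).

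**Figure D5:**
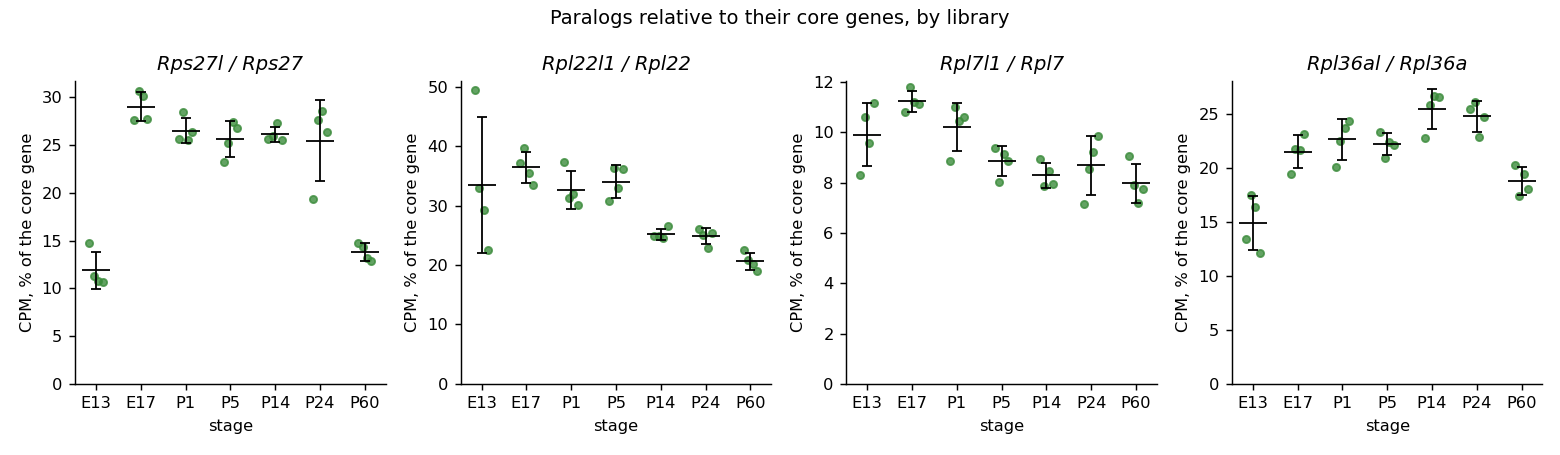
CPM of 4 paralogs as a percentage of the core gene in every library at 7 stages (CPM + 0.5 in both), with the mean ± SD of the 4 libraries. Rps27l stays near 26% of Rps27 from P1 to P24 in the stage means and is at 13.8% at P60, while Rpl22l1 and Rpl7l1 decline earlier.

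From E17 to P60 many genes that build and serve the ribosome fell as well. The following lists were chosen with earlier results of these data known, and their counts are descriptions. Each count stands beside the 31.5% of all genes that fell and the 32.8% that rose. Of 48 ribosome biogenesis genes 38 fell and 4 rose, with a median of -0.89, against -0.34 for the members and 0.00 for all genes. Nop58, a core protein of methylation-guiding snoRNPs, fell from 89.1 ± 2.03 to 23.0 ± 2.68 CPM (log2 change -1.96 ± 0.21, adjusted p = 3.58e-09), and Sbds, which helps release Eif6 from new large subunits, rose from 57.8 ± 2.90 to 155 ± 7.10 CPM (1.42 ± 0.083, adjusted p = 2.44e-14).

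Of 37 translation factors 22 fell and 4 rose (median -0.37). Eif4a1, the helicase of initiation, fell from 654 ± 18.8 to 194 ± 5.38 CPM (-1.75 ± 0.10, adjusted p = 2.37e-14), while Eef1a2, the elongation factor of mature neurons and muscle, rose from 2.11 ± 0.695 to 16.9 ± 2.84 CPM (3.00 ± 0.35, adjusted p = 2.54e-08). Of the 78 mitochondrial ribosomal proteins 35 fell and 5 rose (median -0.30), with the extremes Mrps22 (16.2 ± 1.24 to 5.70 ± 0.998 CPM, adjusted p = 1.08e-09) and Mrps6 (2.21 ± 0.18, adjusted p = 2.15e-11). The snoRNA host genes, whose transcripts carry the same pyrimidine start, fell in 6 of 8 and rose in 1 (median -0.96), with Snhg1 at -2.50 ± 0.18 (adjusted p = 1.12e-12) and Snhg8 at 1.18 ± 0.25 (adjusted p = 0.000215).

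Of the genes of mTORC1 and Myc control 6 of 18 fell and 6 rose (median -0.11), shares close to the 31.5% and 32.8% of all genes. Mycl rose from 1.14 ± 0.308 to 17.8 ± 1.59 CPM (3.95 ± 0.24, adjusted p = 3.90e-14), and Eif4ebp2, a repressor of cap-dependent initiation, fell from 201 ± 5.40 to 87.7 ± 3.75 CPM (-1.20 ± 0.12, adjusted p = 7.66e-10). Among ribosome-linked genes that the naming rule misses, Rack1, which sits on the small subunit, fell (-1.02 ± 0.19, adjusted p = 4.4e-05). Fau, a ubiquitin-like fusion of a small subunit protein, had an estimate of 0.74 ± 0.36 that did not pass (adjusted p = 0.0746).

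Proliferation markers were lower at P60 in 8 of 8, with summed levels of 2475 to 2548 CPM at E17 and 6.28 to 8.92 at P60. Schwann cell markers were higher in 6 of 7 (3765 to 4207 against 68920 to 87750 CPM). Fibroblast markers were higher in 3 of 6 and lower in 2 (16120 to 18070 against 4931 to 7087 CPM), erythroid markers lower in 7 of 9 (365 to 1010 against 23.3 to 49.3 CPM, Hbb-bh1 at 0 in all P60 libraries), neuron cell body markers lower in 4 of 8 and higher in 1 (7.55 to 14.98 against 8.89 to 13.9 CPM), and muscle markers lower in 6 of 8 and higher in 1 (9.93 to 34.1 against 7.40 to 10.8 CPM, Myh8 at 0 in all P60 libraries). Endothelial markers were higher in 3 of 5 (257 to 309 against 376 to 411 CPM), and macrophage markers higher in 2 and lower in 1 of 5 (89.5 to 102 against 88.4 to 124 CPM). Their part in the members' change between these stages was not tested.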

How the data were processed

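Bulk poly-A RNA sequencing measured 28 libraries, 4 at each of 7 stages, grouped by the developmental stage in their labels. Per the labels and the study's methods, stranded mRNA libraries were read in single-end mode, trimmed, aligned with STAR 2.6.1c to an Ensembl genome and counted per gene with featureCounts. The deposited values are raw counts per gene, with no normalization by the authors. The submitters' notes name the mouse build GRCm38.p5, whereas the methods name a human build, which was taken as a slip because the deposited identifiers are those of mouse genes. The strand and multi-mapping settings are not given in the sources used here.

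Gene symbols, positions, lengths and GC content came from a GENCODE annotation of GRCm38, and promoter sequences from RefSeq. The members and all gene lists were chosen with earlier results of these data known. Genes passing filterByExpr (17700) were scaled by TMM and fitted with edgeR 4.0.16 (robust quasi-likelihood, stage as the only term, all 28 libraries in 1 fit), with Benjamini-Hochberg adjustment over all 17700 genes and calls at an adjusted p under 0.05. Stage values are means ± SD of TMM-scaled CPM, and fold changes are fitted values ± SE. Paralog ratios used a pseudocount of 0.5 CPM and an exact permutation test (scipy 1.17.1). Named members were the 5 largest rises and falls of P60 against E17, the 2 largest changes of each adjacent pair of stages, the paralogs, members of known role (Rpl5, Rpl11, Rps6, Rpsa, Rps27a and the stalk genes), and the 3 highest and 3 lowest core members by RPKM, and of each other list the largest rise and fall. Rps3a1 and Rps25 (P1), Rpl36al (P5 and P60) and Rps27l (E17) were named besides, as the few members called, and Rps2 in the P5 to P14 step was added, all after their values were seen. Alternatives were DESeq2 1.42.0, limma-voom (limma 3.58.1), other scalings and filters, GC corrections, a replicate block, fewer stages, a 2-fold minimum and leaving out each library. Some genes of the lists are not reported here. The fit was tested on simulated data. Labels do not say whether embryos or mice shared a litter, so p-values measure the spread between these libraries only. Counting error is small at the depth of most members, and totals of 13899895 to 37662780 counts limit mainly the 4 untested members.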

Additional observations from a re-analysis of the deposited data

Results flagged for a closer look

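Single libraries stood apart from the other 3 of their stage in 7 of 87 values tested, by Dixon's test at the 95% level. Chance gives about 5% of such values.

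P1 replicate 1 was low in the summed TMM-scaled level of all members, with 2.51% of all scaled counts against 2.96% to 3.03% in the others, and in Rpl36 with 14.1 CPM against 74.2 to 85.3 CPM. This library had a GC slope of -0.47 log2 per 10 points. P60 replicate 1 was low in Rps21 (128 CPM against 179 to 187) and in Rps29 (201 CPM against 284 to 300), and high in Rpl7l1 (49.9 CPM against 40.6 to 42.1). Its GC slope was -0.13. E17 replicate 3 was high in Rps27l, with 82.1 CPM against 75.6 to 76.3. P24 replicate 1 was low in Rps19bp1, with 9.78 CPM against 11.7 to 11.8. Why these libraries differ was not tested.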

How the results depend on the processing

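Of 237 alternative values for the counts of members called, the paralog ratios and the summed share, 179 stayed within the limits set (a count within 1.5 times, a ratio on its side of the threshold, a share within 1 SD) 57 moved and 1 gained a call. No paralog ratio and no value of the summed share changed sign. Of 669 values for single members 53 lost and 26 gained a call, and none changed sign with a call in either fit, while uncalled estimates near 0 did, such as Rpl13a from E17 to P60 (-0.05 to 0.08 with 1 library left out). The calls of P60 against P24 turned from 0 higher and 2 lower to 7 higher and 0 lower with library size only. The E13 libraries, with the widest spread, enter the spread of every fit over all stages.

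With DESeq2 size factors the count was 1 for P1 against E17 and 1 for P60 against P24. With library size only it was 0, 25 (P5 against P1) and 7 (P60 against P24), and all genes shifted by a median of -0.31 from E17 to P60. Without a filter on low counts it was 4, 1 and 1 for the same 3 comparisons. DESeq2's Wald test gave 4 for P5 against P1. Limma-voom gave 59, 31, 72, 3 and 25 for P1 against E17, P5 against P1, P14 against P5, P24 against P14 and P60 against P24. Fits of only the 2 stages compared gave 14, 32, 15, 72 and 16 for E17 against E13, P1 against E17, P5 against P1, P14 against P5 and P60 against P24. Without E13 the counts were 36, 27 and 18 for P1 against E17, P5 against P1 and P60 against P24, and with the GC trend against the stage mean removed 16, 5 and 6, against all 28 libraries (chosen after seeing the data) 13, 10 and 6. With E13 replicates 1 and 4 and P1 replicate 1 left out together (also chosen after seeing the data) they were 49 and 17 for P1 against E17 and P5 against P1. A minimum of 2-fold left 0 members in every adjacent comparison, 4 in P60 against E17 and 37 along the timeline. The cause of these moves was not tested beyond the smaller sets of libraries and genes named.

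The difference in summed share was -0.84 without the 10 most abundant genes and -0.45 on the TMM scale. Leaving out 1 library gave 31 to 73 members for E17 against E13, 0 to 7 for P1 against E17 (7 without P1 replicate 1), 0 to 1 for P5 against P1, 33 to 42 for P14 against P5, 0 for P24 against P14, 0 to 2 for P60 against P24, 35 to 39 for P60 against E17 and 60 to 77 along the timeline. It gave differences of -1.01 to -0.91 in summed share and log2 ratios of -0.86 to -0.78 for Rpl22l1, -1.11 to -1.04 for Rps27l, -0.24 to -0.16 for Rpl36al -0.56 to -0.45 for Rpl7l1 and 0.57 to 0.87 for Rps4l. With a pseudocount of 2 the Rps4l ratio passed its test (log2 difference 0.69).

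Replicate numbers are shared across stages, and no source says that a number marks a litter or day. The deviations of same-numbered libraries from their stage means had correlations of -0.06 to 0.29 over all genes, with 1 or 2 of the 4 pairs over 0.1 in each contrast, and 2 to 5 of 8 libraries correlated best with their own number, so the numbers were not taken to pair the libraries. With a replicate block 49, 3, 1, 48, 0, 2 and 40 members were called in the 7 contrasts in stage order and P60 against E17, and 65 along the timeline.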
